A study of Mus musculus with 5 samples.

Results

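The genes described here are Zmpste24, 4 further genes of CAAX protein processing (Rce1, Icmt, Fnta and Fntb) and the 3 lamin genes (Lmna, Lmnb1 and Lmnb2). They are 8 of the 28666 genes listed in the count table and were found by gene symbol. The group was chosen by the genes' roles and with the aged-SP against young-SP fold changes of these same libraries in view, so the values of the 8 genes in the groups are given as a description, with no test and no count of calls. The libraries hold RNA of whole uteri from ICR females, an outbred stock, that were 6 to 8 weeks old and had been caged with vasectomized C57BL/6 males, so that the uterus met seminal plasma (SP) without sperm. The study's methods give the males as 12 to 14 weeks old in the young-SP group and 12 to 18 months old in the aged-SP group. Only the male differed by design, and females of both groups were of the same stock and age. Uteri were collected at 3.0 days post coitum by the methods and 3.5 days after caging by the labels. The aged-SP group has 2 libraries (replicates 1 and 4) and the young-SP group 3 (replicates 1, 2 and 4). The study excluded a further young-SP sample as an outlier in hierarchical clustering, and that sample was not analysed here.

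The nuclear lamina is a protein mesh under the inner nuclear membrane, built from A-type lamins (prelamin A and lamin C, both from Lmna) and B-type lamins (from Lmnb1 and Lmnb2). Prelamin A and the B-type lamins end in a CAAX box, a cysteine followed by a pair of usually aliphatic residues and a last variable one. Farnesyltransferase attaches a farnesyl lipid to that cysteine, a protease (RCE1 or ZMPSTE24) removes the last residues, and ICMT methylates the exposed cysteine. Prelamin A is then cut once more by ZMPSTE24, which removes the farnesylated tail and leaves mature lamin A, whereas B-type lamins stay farnesylated and lamin C is never farnesylated. Loss of ZMPSTE24 leaves farnesylated prelamin A in the nuclear envelope and is known for progeroid disease in mice and people. RNA counts measure transcripts, and neither the enzymes' activity nor prelamin A protein was measured in these libraries.

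The coding ends below contrast a lamin that has a CAAX box with one that has none. They were read from GENCODE M21 transcripts on GRCm38, 5′ to 3′ on the coding strand, and each holds the last 21 codons and the stop codon. Capitals mark the last 4 codons before the stop, the place of a CAAX box. Those codons begin with a cysteine codon (TGC) in Lmnb2-201 (chr10:80902859-80903235, minus strand, across a splice junction). They do not in the lamin C transcript Lmna-203 (chr3:88483297-88483362, minus strand). In the Lmnb1 transcript the same place also holds a cysteine codon. A cysteine codon (TGT or TGC) stands 4 codons before the stop in 1294 of 45900 complete coding transcripts, or 2.82%.
Lmna-203, lamin C: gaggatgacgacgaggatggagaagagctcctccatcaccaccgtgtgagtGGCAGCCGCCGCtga
Lmnb2-201, lamin B2: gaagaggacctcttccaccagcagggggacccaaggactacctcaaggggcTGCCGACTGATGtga

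Zmpste24-201 encodes 475 codons, and its zinc-binding HEXXH motif, the centre of the protease's active site, begins at codon 335. The motif was searched in frame on the coding strand, it occurs 1 time in this transcript, and 1399 of the 45900 coding transcripts (3.05%) hold it at least once. The stretch around it lies at chr4:121068737-121068781 on the minus strand, with the motif's codons in capitals.
Zmpste24-201: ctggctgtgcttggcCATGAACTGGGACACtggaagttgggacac

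Total counts per library lay between 15071914 and 16728601, and 17013 genes had enough counts to be tested, the 8 genes among them. Defining markers of uterine tissue (6 of 6, among them Esr1 and Hoxa10) were present in every library. Their summed level was 1327 to 1398 CPM (counts after scaling the libraries to one size) in the aged-SP group and 1446 to 1531 in the young-SP group. Of the 6, 4 were lower and 1 was higher in the aged-SP group without overlap, against 19.3% and 19.5% of all tested genes. Adipose markers were near 0, with 3 of 3 at 0 in some library, while the oviduct marker Ovgp1 ranged from 35.1 to 232.6 CPM and the ovary markers summed to between 21.2 and 69.97 CPM with no separation of the groups. Of the libraries left out in turn, young-SP replicate 1 changed the number of called genes most. With it, 25 genes passed edgeR's quasi-likelihood test at the thresholds used (Benjamini-Hochberg adjusted p under 0.05, log2 fold change over 1 in size), and without it 578 did, so values of the members without it are given below. A negative log2 fold change means that the level was lower in the aged-SP group.

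Zmpste24 mRNA was lower in both aged-SP uteri than in each young-SP uterus, by more than any other of the 8 genes. Rce1, Icmt and Fnta, which encode the second CAAX protease, the methyltransferase and the alpha subunit of farnesyltransferase, overlapped between the groups. Fntb, Lmna and Lmnb2 were lower in the aged-SP group without overlap, by much smaller amounts, and Lmnb1 overlapped, with a wide spread in both groups. In all, 4 of the 8 genes were lower and 0 were higher without overlap, and the median log2 fold change was -0.26, against 0.01 over all tested genes. Separation of this kind was common in these libraries, where 38.8% of all tested genes did not overlap between the groups (19.3% lower and 19.5% higher in the aged-SP group). Because whole uteri were sequenced, fewer cells of a type and less RNA per cell cannot be told apart.

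**Figure D1:**
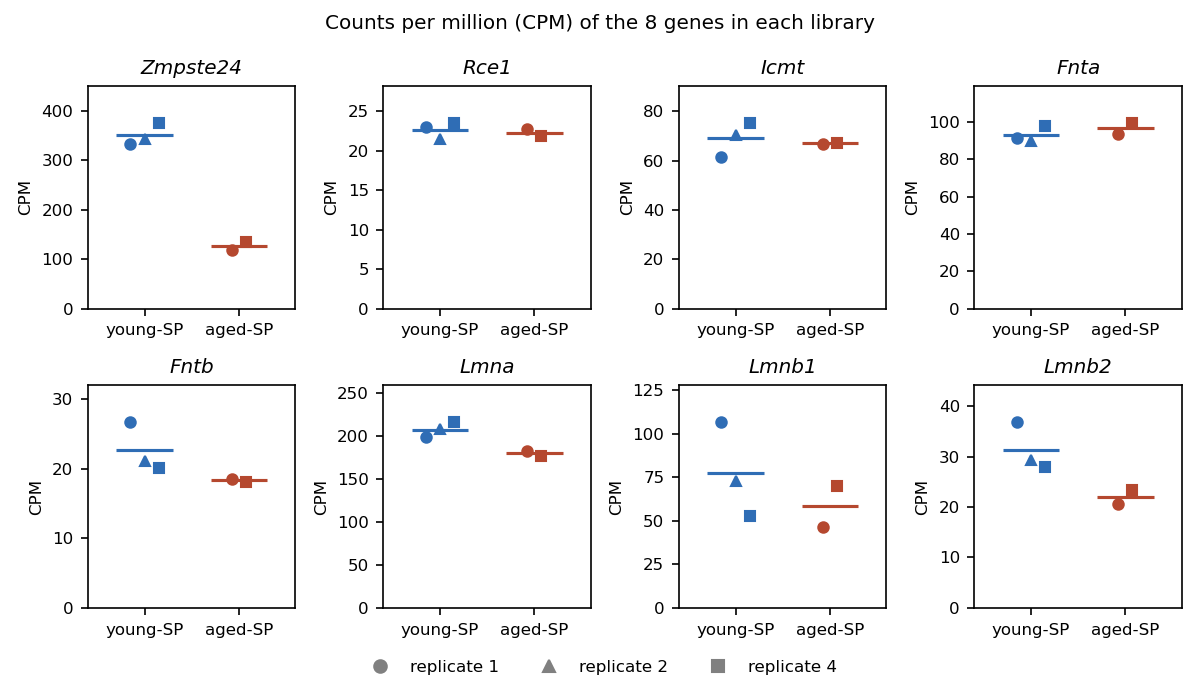
Level of each of the 8 genes in each library, in CPM (linear axis from 0). Each point is 1 library, the marker gives its replicate number and the horizontal line is the mean of the group (2 aged-SP and 3 young-SP libraries). Zmpste24 stands at 119.5 and 134 CPM in the aged-SP group and at 332 to 375 CPM in the young-SP group, while Rce1, Icmt, Fnta and Lmnb1 overlap.

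Zmpste24 (ENSMUSG00000043207, chr4:121059237-121098241, minus strand) encodes the zinc metalloprotease of the endoplasmic reticulum and inner nuclear membrane that matures prelamin A. It was counted 1977 times in aged-SP replicate 1 and 2096 times in replicate 4, or 119.5 and 134 CPM. In young-SP replicates 1, 2 and 4 it was counted 5310, 5804 and 5619 times, or 332, 343 and 375 CPM. The lowest young-SP library was thus 2.48 times the highest aged-SP library, and the means were 126.8 ± 10.3 CPM (SD, n = 2) and 350.1 ± 22.3 CPM (SD, n = 3). The aged-SP mean was 36.2% of the young-SP mean, with a log2 fold change of -1.47 (SE 0.11). Among the libraries kept, the spread within each group was small beside this difference. The coefficient of variation was 8.11% in the aged-SP group (n = 2) and 6.38% in the young-SP group (n = 3). The young-SP spread leaves out the sample that the study excluded as an outlier. Of its exon bases 125 (1.75%) overlap Gm26186 on the same strand.

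Of all tested genes, 2.31% had a log2 fold change as low as that of Zmpste24 or lower. Among the 2088 tested genes with a mean of at least 100 CPM, 18 did, itself included. Zmpste24 was chosen with these fold changes in view, so its place among all genes is a description and no evidence that its difference is unusual. With each library left out in turn the log2 fold change of Zmpste24 lay between -1.55 and -1.39, and it was -1.52 without young-SP replicate 1.

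Rce1 (ENSMUSG00000024889, chr19:4622591-4625641, minus strand) encodes the other CAAX protease, which trims Ras proteins and B-type lamins. Its level was 22.8 and 21.8 CPM in the aged-SP group and 23.0, 21.5 and 23.5 CPM in the young-SP group. All 5 libraries lay in one narrow band, and the log2 fold change was -0.02 (SE 0.12), also without young-SP replicate 1. Icmt (ENSMUSG00000039662, chr4:152297227-152307121, plus strand), the methyltransferase that acts after either protease, was at 66.8 and 67.2 CPM in the aged-SP group and 61.6, 70.3 and 75.2 CPM in the young-SP group. Both aged-SP libraries fell inside the young-SP range, and the log2 fold change was -0.04 (SE 0.11), or -0.13 without young-SP replicate 1, where Icmt was lowest. Of its exon bases 103 (1.95%) overlap Rnf207 on the opposite strand, and reads there cannot be told apart without strand. The sign of these small values was not stable: it turned for Rce1 without aged-SP replicate 4 and for Icmt without young-SP replicate 4, reaching 0.01 in each case.

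Of the subunits of farnesyltransferase, Fntb separated the groups and Fnta did not. Fnta (ENSMUSG00000015994, chr8:25998722-26015650, minus strand), the alpha subunit that is also part of geranylgeranyl transferase I, was at 93.7 and 99.3 CPM in the aged-SP and 91.4, 89.5 and 97.6 CPM in the young-SP group. The groups overlapped, with a log2 fold change of 0.06 (SE 0.09), or 0.03 without young-SP replicate 1. Fntb (ENSMUSG00000033373, chr12:76765589-76921412, plus strand), the beta subunit that binds the farnesyl donor and is particular to farnesyltransferase, was at 18.5 and 18.1 CPM in the aged-SP and 26.6, 21.2 and 20.1 CPM in the young-SP group. Both aged-SP libraries were below the 3 young-SP libraries, although by only a small step from young-SP replicate 4. Its log2 fold change was -0.31 (SE 0.16), and -0.19 without young-SP replicate 1, the library in which Fntb was highest. Fntb shares 257 exon bases (6.45%) with Churc1 on the same strand, and the origin of reads there is uncertain.

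Lmna (ENSMUSG00000028063, chr3:88480147-88509956, minus strand), whose gene count pools the prelamin A and lamin C transcripts, was the most highly counted lamin gene. It was at 182.7 and 176.3 CPM in the aged-SP group and 198.3, 207 and 215 CPM in the young-SP group. The aged-SP libraries were the lowest of the 5 and close to each other, and the aged-SP mean was 86.7% of the young-SP mean, with a log2 fold change of -0.21 (SE 0.09), or -0.25 without young-SP replicate 1. Whether prelamin A and lamin C transcripts moved alike cannot be read from a count per gene.

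Lmnb2 (ENSMUSG00000062075, chr10:80901203-80918245, minus strand), which encodes lamin B2, was at 20.6 and 23.3 CPM in the aged-SP group and 36.8, 29.4 and 28.0 CPM in the young-SP group. The groups did not overlap, and the log2 fold change was -0.52 (SE 0.16), the largest in size after that of Zmpste24. It was -0.40 without young-SP replicate 1, where Lmnb2 was highest. Lmnb1 (ENSMUSG00000024590, chr18:56707813-56753424, plus strand), which encodes lamin B1 and is known to fall in senescent cells, was at 46.2 and 70.2 CPM in the aged-SP group and 106.5, 72.5 and 52.9 CPM in the young-SP group. It was the most variable of the 8 genes, with a coefficient of variation of 29.1% in the aged-SP and 35.1% in the young-SP group. The groups overlapped, and its log2 fold change was -0.41 (SE 0.34), or -0.12 without young-SP replicate 1.

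Proliferation markers (Mki67, Top2a, Ccnb1, Cdk1 and Pcna) were highest in the same library as the B-type lamins and Fntb. They summed to 302.6 and 314.6 CPM in the aged-SP group and to 772.8, 446 and 342 CPM in young-SP replicates 1, 2 and 4. Of the 5, 3 were lower in the aged-SP group without overlap, against 19.3% of all tested genes. Young-SP replicate 1, the highest in these markers, was also the highest in Lmnb1, Lmnb2 and Fntb but the lowest of the young-SP libraries in Zmpste24 and Lmna. Stromal markers (Pdgfra, Pdgfrb, Dcn, Lum and Col1a1) summed to 5260 to 6424 CPM in the aged-SP and 7120 to 9289 CPM in the young-SP group. Of these 5, 2 were lower and 1 higher without overlap, against 19.3% and 19.5% of all tested genes. Col1a1 carried the separation of the stromal sums (2412 and 2869 against 4382, 5193 and 5232 CPM). Without it the other 4 summed to 2848 and 3556 against 2738, 3532 and 4056 CPM, which overlapped. Among these 4, Pdgfra was also lower without overlap (347 and 344 against 453, 617 and 560 CPM). Pdgfrb was higher without overlap (142 and 140 against 96.8, 122 and 116 CPM). Skeletal muscle markers, of which 2 of 3 were listed, summed to 70.6 to 87.4 CPM and 160.2 to 237.9 CPM, mostly Acta1. The other one, Ckm, overlapped between the groups (4.53 and 4.80 against 3.44, 4.67 and 11.3 CPM). The sums overlapped for epithelium (1049 to 1135 against 713.7 to 1377 CPM), myometrium (8493 to 10807 against 8949 to 13520 CPM), endothelium (410.9 to 428.6 against 299.3 to 535 CPM) and leukocytes (203 to 239 against 162 to 278 CPM). Single markers of these lists separated, 1 of 6 higher in epithelium, 1 of 5 lower in myometrium and 1 of 5 higher in leukocytes. Such counts are near the shares over all tested genes, 19.3% lower and 19.5% higher. The part of the proliferation markers, the stromal markers and Acta1 in the differences of the 8 genes was not tested.

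**Figure D2:**
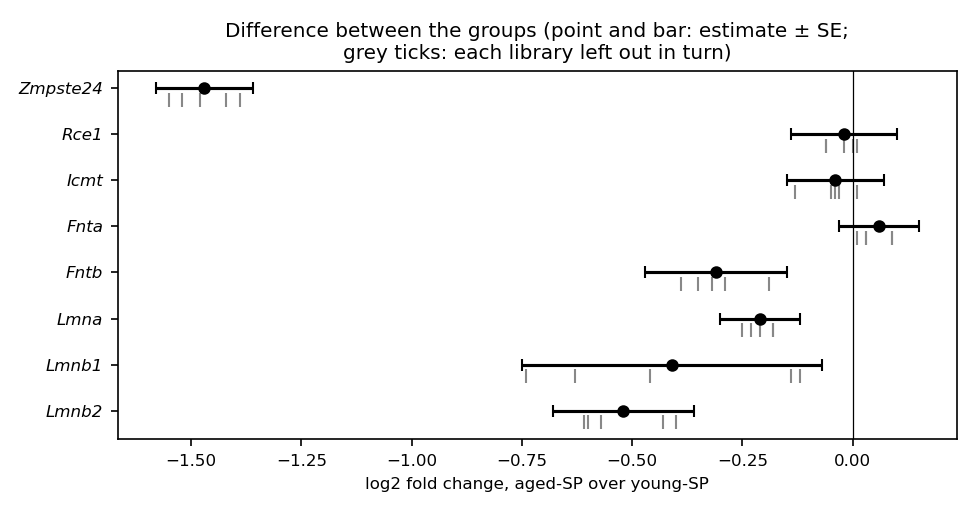
Log2 fold change of each of the 8 genes, aged-SP over young-SP, with its standard error (bars) from edgeR's fit over all 17013 tested genes. Grey ticks are the values with each library left out in turn. Zmpste24 lies at -1.47 (ticks from -1.55 to -1.39), and the other 7 genes lie between -0.52 and 0.06.

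Levels of different genes were compared per length, as FPKM (the count per kilobase of gene length, scaled to the total count of the library). Over the 5 libraries the order was Zmpste24 (36.5 ± 17.4 FPKM, SD, n = 5), Lmna (33.5 ± 2.99), Fnta (31.3 ± 1.21), Lmnb1 (23.5 ± 7.88), Icmt (12.9 ± 1.002), Rce1 (10.8 ± 0.313), Lmnb2 (6.43 ± 1.46) and Fntb (5.24 ± 0.860). The ranges of the first 4 genes over the libraries overlapped from each to the next, and so did those of Lmnb2 and Fntb, so their order is not larger than the spread. Every library had more Lmnb1 (at least 15.4 FPKM) than any library had Icmt (at most 14.1). The lowest Icmt level (11.6 FPKM) was above the highest Rce1 level (11.2), and the lowest Rce1 level (10.4) above the highest Lmnb2 level (8.52). The alpha subunit of farnesyltransferase was thus several times as abundant per length as the beta subunit.

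The place of Zmpste24 in this order depended on the group. In aged-SP replicates 1 and 4 it stood at 16.5 and 18.7 FPKM, below Lmna (30.9 and 30.1) and Fnta (30.8 and 32.9) of the same libraries. In young-SP replicates 1, 2 and 4 it stood at 46.1, 49.0 and 52.2 FPKM, the highest of the 8 genes in each. The gene length behind these values is the union of all annotated exons (7145 bases for Zmpste24), whereas the longest coding transcript of Zmpste24 has 3429 bases. With the length of that transcript for every gene, an alternative added after the values had been seen, Zmpste24 was at 76.1 FPKM and Lmna at 62.1, and Rce1 changed places with Icmt and Fntb with Lmnb2.

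**Figure D3:**
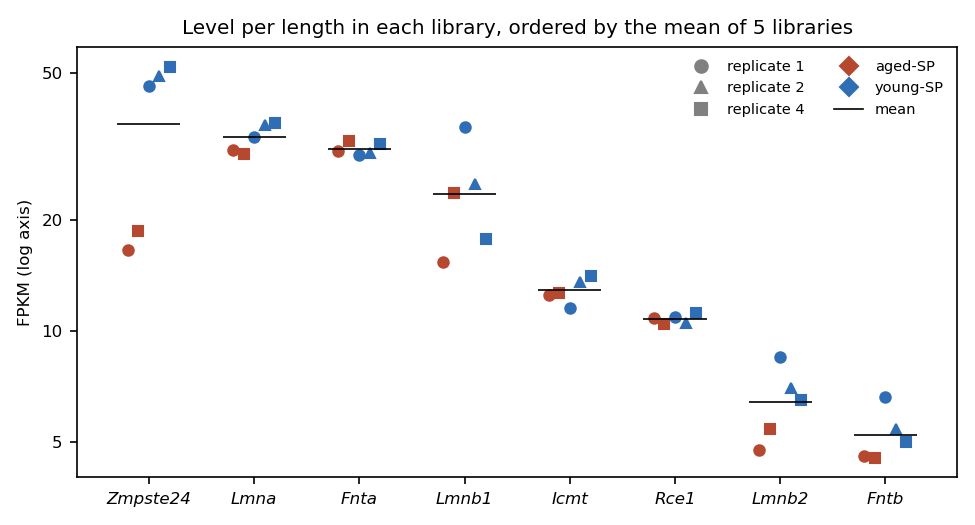
Level per length of the 8 genes in the 5 libraries, in FPKM (log axis), ordered by the mean. Each point is 1 library, coloured by group, and the black line is the mean of the 5 libraries. Zmpste24 is split between 16.5 to 18.7 FPKM in the aged-SP group and 46.1 to 52.2 FPKM in the young-SP group.

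Ratios within a library do not depend on its depth. Zmpste24 to Lmna, the protease to the gene of its substrate, was 0.535 and 0.621 in the aged-SP group and 1.37, 1.35 and 1.42 in the young-SP group. The aged-SP uteri thus had more Lmna than Zmpste24 per length, and the young-SP uteri had less. Zmpste24 to Rce1, the alternative CAAX protease, was 1.53 and 1.79 in the aged-SP and 4.22, 4.66 and 4.65 in the young-SP group. Zmpste24 to Icmt was 1.32 and 1.48 against 3.99, 3.61 and 3.69. These ratios separate the groups because Zmpste24 does, and they are no further evidence of its difference.

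Among the other ratios, Fnta to Fntb was 6.71 and 7.26 in the aged-SP group and 4.54, 5.60 and 6.43 in the young-SP group, with both aged-SP libraries above the 3 young-SP libraries. Of the summed lamin FPKM, Lmna made up 60.5% and 50.9% in the aged-SP group and 43.3%, 53.1% and 60.2% in the young-SP group, and Lmnb1 made up 30.2% and 39.9% against 45.8%, 36.6% and 29.1%. Both shares overlapped between the groups. Lmnb2 made up 9.28% and 9.16% of the sum in the aged-SP and 10.9%, 10.3% and 10.7% in the young-SP group, the one lamin whose share did not overlap. The ratio of Lmnb2 to Lmna overlapped, at 0.153 and 0.180 in the aged-SP and 0.253, 0.193 and 0.177 in the young-SP group. Lmnb1 to Lmnb2 overlapped too, at 3.26 and 4.36 against 4.19, 3.57 and 2.74. Fntb and Lmnb2 separated the groups by themselves, so the separations of Fnta to Fntb and of the Lmnb2 share are no further evidence.

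The genes around the 8 were followed in 7 lists of 96 genes, of which 95 could be tested (Cdkn2a had too few counts). By edgeR's test 0 of the 95 were called and by limma-voom 0, against 0.147% and 0.159% of all 17013 tested genes. By DESeq2's Wald test, run with no filter on low counts, 1 was called (Gadd45a), against 3.60% of 17536 genes. At an unadjusted p under 0.05 by edgeR there were 13 (7 lower and 6 higher in the aged-SP group), or 13.7%, against 19.0% of all tested genes (9.36% lower and 9.62% higher). The groups did not overlap in 16 lower and 16 higher genes, against 19.3% lower and 19.5% higher of all tested genes. These shares over all tested genes are the background for each list below. The median log2 fold change of the 95 genes was -0.01. The adjusted p-values below are from edgeR, with the Benjamini-Hochberg method over all tested genes.

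Upstream of the lamins, the mevalonate pathway makes the farnesyl and geranylgeranyl donors. Of its 11 genes 10 had a log2 fold change below 0, with a median of -0.34, and 4 were lower without overlap. The unadjusted test found 3 lower and 0 higher. Mvk, mevalonate kinase, was at 12.8 and 12.6 CPM in the aged-SP and 17.6, 17.3 and 18.1 CPM in the young-SP group, a log2 fold change of -0.48 (SE 0.13, adjusted p = 0.146). Pmvk, the next kinase, had a log2 fold change of -0.68 (SE 0.19, adjusted p = 0.163), and Idi1, the isomerase that makes the starter unit of the chain, -1.26 (SE 0.44, adjusted p = 0.223). The aged-SP libraries lay below every young-SP library in all 3 genes, which missed the threshold. Fdps, farnesyl diphosphate synthase, was at 0.363 and 0.384 CPM in the aged-SP and 1.94, 0.709 and 0.134 CPM in the young-SP group, too low to read. Srebf2, the transcription factor that drives this pathway and the list's highest gene per length (14.4 FPKM), had a log2 fold change of -0.04 (SE 0.19).

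The other prenyltransferase genes gave 0 of 6 at an unadjusted p under 0.05, with 3 below and 3 above 0. Chml, a Rab escort protein, had a log2 fold change of 0.34 (SE 0.20, adjusted p = 0.404), Ptar1, an alpha-type subunit, 0.14 (SE 0.14, adjusted p = 0.618), and Pggt1b, the beta subunit that pairs with Fnta in geranylgeranyl transferase I, -0.10 (SE 0.12, adjusted p = 0.691). Rabggtb, the beta subunit of the Rab enzyme, had the highest level of the list (31.1 FPKM) and a log2 fold change of 0.02 (SE 0.12). No gene of the list differed by more than 0.34 on the log2 scale.

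Carriers and breakdown enzymes of prenylated proteins numbered 11, of which 8 were below 0. The unadjusted test found 2 lower and 0 higher. Arl3, a small GTPase that releases prenylated cargo from its carrier, was at 30.9 and 38.1 CPM in the aged-SP and 43.7, 47.1 and 48.5 CPM in the young-SP group, a log2 fold change of -0.43 (SE 0.13, adjusted p = 0.172). Rap1gds1, a chaperone of prenylated small GTPases, had a log2 fold change of -0.25 (SE 0.09, adjusted p = 0.240), and Arl2, a relative of Arl3, also -0.25 (SE 0.13, adjusted p = 0.353). Arhgdia, which holds prenylated small GTPases in the cytosol and was the highest of the list (130.6 FPKM), had -0.11 (SE 0.08).

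Of 25 other genes whose proteins end in a CAAX box, 13 were below and 12 above 0, with a median of -0.01. The unadjusted test found 1, Nap1l1, a histone chaperone, at 263.6 and 294.3 CPM in the aged-SP and 352.8, 364 and 321 CPM in the young-SP group (log2 fold change -0.31, SE 0.11, adjusted p = 0.215). Rasd1, a Ras-like GTPase, had a log2 fold change of -0.39 (SE 0.21, adjusted p = 0.368). The farnesylated kinetochore motor Cenpe was at 16.6 and 18.2 CPM in the aged-SP and 50.7, 24.5 and 15.96 CPM in the young-SP group, so that young-SP replicate 1 was the highest, as for Lmnb1 (log2 fold change -0.80, SE 0.49, adjusted p = 0.427). Cdc42, the small GTPase with the highest level of the list (186.0 FPKM), had -0.13 (SE 0.09, adjusted p = 0.478).

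The nuclear lamina's partners were the list with the most genes higher in the aged-SP group, 7 without overlap against 2 lower, of 22. The unadjusted test found 3 higher and 0 lower. Lemd2, an inner nuclear membrane protein that binds lamins, was at 49.0 and 53.6 CPM in the aged-SP and 35.5, 32.4 and 36.0 CPM in the young-SP group, a log2 fold change of 0.57 (SE 0.10, adjusted p = 0.0851). Sun2, which links the lamina to the cytoskeleton through nesprins, was at 142.2 and 167.7 CPM against 86.3, 99.0 and 112.2 CPM, a log2 fold change of 0.64 (SE 0.14, adjusted p = 0.114). Narf, which binds farnesylated prelamin A, was at 59.97 and 60.7 CPM against 48.7, 39.1 and 41.8 CPM, a log2 fold change of 0.48 (SE 0.12, adjusted p = 0.132). All 3 were higher in both aged-SP libraries and missed the threshold in edgeR, while DESeq2 gave them adjusted p-values of 0.00375, 0.0093 and 0.0448 at fold changes under the size required. An adjusted p under 0.05 alone was reached by 7.58% of the 17536 genes in DESeq2's test. Banf1, a chromatin-bridging partner of the lamina and the highest of the list (75.1 FPKM), had a log2 fold change of -0.23 (SE 0.12).

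ZMPSTE24 also clears proteins stuck in the Sec61 translocon, the channel through which new proteins enter the endoplasmic reticulum. Of the 6 translocon genes 5 were above and 1 below 0. Sec61a2, the minor alpha subunit, was lower in the aged-SP group, at 16.9 and 17.5 CPM against 23.6, 22.3 and 21.9 CPM, with a log2 fold change of -0.40 (SE 0.12, adjusted p = 0.174). The main alpha subunit Sec61a1 overlapped between the groups (0.21, SE 0.18), Sec63 had a log2 fold change of 0.19 (SE 0.10, adjusted p = 0.380), and Sec61b, the highest per length (69.1 FPKM), one of 0.04 (SE 0.20).

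Targets of p53 and genes of cell cycle arrest are known to rise in cells that lack ZMPSTE24. Here 9 of 14 were above and 5 below 0. Without overlap 4 were higher and 0 lower, against 19.5% and 19.3% of all tested genes. The unadjusted test found 3 higher and 0 lower, or 21.4% of the list, against 19.0% of all tested genes (9.62% higher). A link of these genes to the level of Zmpste24 was not tested. Gadd45a, a stress-induced growth arrest gene, was at 47.5 and 21.6 CPM in the aged-SP and 9.88, 9.87 and 9.95 CPM in the young-SP group. Its log2 fold change was 1.80 (SE 0.33), with an adjusted p of 0.0879 in edgeR and 6e-05 in DESeq2, and the aged-SP libraries differed from each other by more than the young-SP libraries did. Trp53inp1, a p53-induced nuclear protein, was at 315.9 and 238 CPM against 169.1, 158.5 and 145.3 CPM, a log2 fold change of 0.81 (SE 0.15, adjusted p = 0.0872 in edgeR). Cdkn1a, the cell cycle inhibitor p21, was at 19.0 and 21.1 CPM against 14.4, 10.3 and 13.1 CPM, a log2 fold change of 0.67 (SE 0.18, adjusted p = 0.152 in edgeR). Ccng1, a p53 target and the highest of the list (52.2 FPKM), had a log2 fold change of -0.23 (SE 0.14), so the list did not move as one. Of the proliferation markers given above, 3 of 5 were lower in the aged-SP group without overlap, against 19.3% of all tested genes. The part of these markers in the values of this list was not tested.

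**Figure D4:**
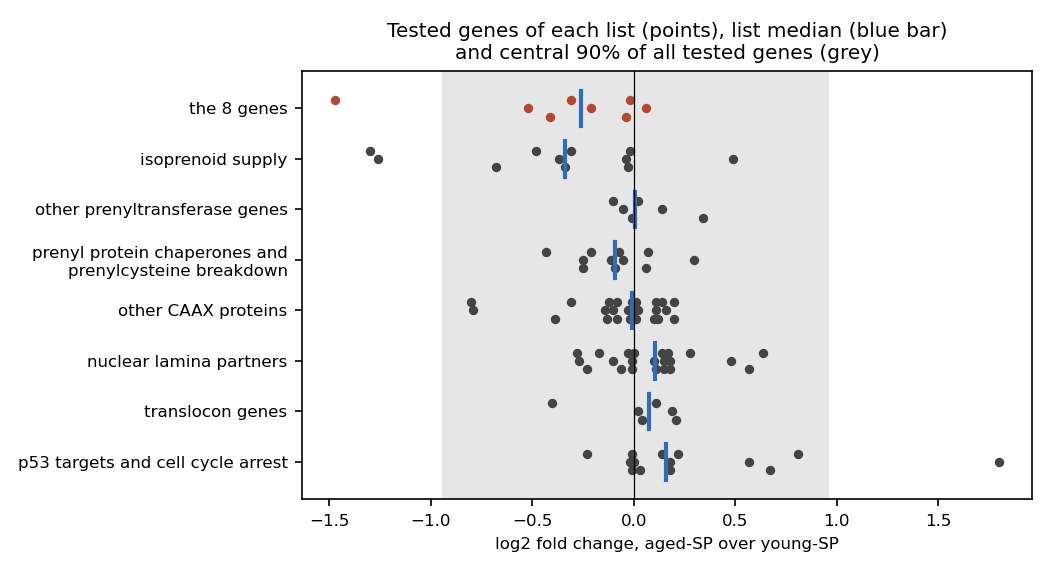
Log2 fold change, aged-SP over young-SP, of the 8 genes (top row, red) and of the 95 tested genes of the 7 pathway lists. Each point is 1 gene, the grey band spans the central 90% of all tested genes (-0.94 to 0.96), and the blue bar is the median of each list, from -0.34 for the isoprenoid supply to 0.16 for the p53 targets and cell cycle arrest. In edgeR's test 0 of the 95 passed the thresholds.

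Zmpste24 was not the only gene of its chromosomal interval that was lower in the aged-SP group. Of the 19 listed genes within 500 kb of it on chromosome 4, 11 could be tested. Of these, 6 were lower and 0 higher without overlap, and the same 6 had an unadjusted p under 0.05. The background over all tested genes is 19.3% lower without overlap, and 9.36% lower at an unadjusted p under 0.05. The median log2 fold change of the 11 was -0.37. By edgeR 0 of the 11 passed the thresholds after adjustment, against 0.147% of all tested genes. By DESeq2 3 did (Cited4, Rims3 and Col9a2), against 3.60% of the 17536 genes in its test. Neighbouring genes are not independent of each other, and the genotype of the females in this interval was not measured.

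Rlf, a zinc finger gene 47.1 kb upstream of Zmpste24, was at 55.1 and 55.7 CPM in the aged-SP and 83.5, 85.5 and 86.4 CPM in the young-SP group. Its log2 fold change was -0.62 (SE 0.08, adjusted p = 0.0708 in edgeR), and the libraries of each group lay close together. Col9a2, a collagen gene 3.92 kb downstream on the opposite strand, was at 1.15 and 2.56 CPM in the aged-SP and 6.51, 10.3 and 11.1 CPM in the young-SP group (log2 fold change -2.33, SE 0.45, adjusted p = 0.0952 in edgeR). Rims3, a synaptic vesicle gene 162.7 kb downstream, was at 2.36 and 2.37 CPM against 7.26, 50.8 and 55.2 CPM (log2 fold change -3.99, SE 0.98, adjusted p = 0.132 in edgeR). Its young-SP level thus rested on replicates 2 and 4, with replicate 1 much closer to the aged-SP libraries.

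Further downstream, Nfyc, a subunit of the CCAAT-binding factor NF-Y, had a log2 fold change of -0.37 (SE 0.09, adjusted p = 0.133), the transcriptional coregulator Cited4 one of -1.02 (SE 0.30, adjusted p = 0.174) and the little-expressed Gm12860 one of -1.66 (SE 0.34, adjusted p = 0.104), all by edgeR's test. Between and beyond these lay genes that overlapped between the groups, among them Smap2 (0.37, SE 0.25), Zfp69 (0.51, SE 0.36), Exo5 (-0.15, SE 0.16) and Ctps (0.04, SE 0.16). Lower genes were thus interspersed with genes that did not separate. Within 250 kb 4 of 7 tested genes were lower without overlap, and within 1000 kb 7 of 16 were lower and 1 (Scmh1) higher.

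**Figure D5:**
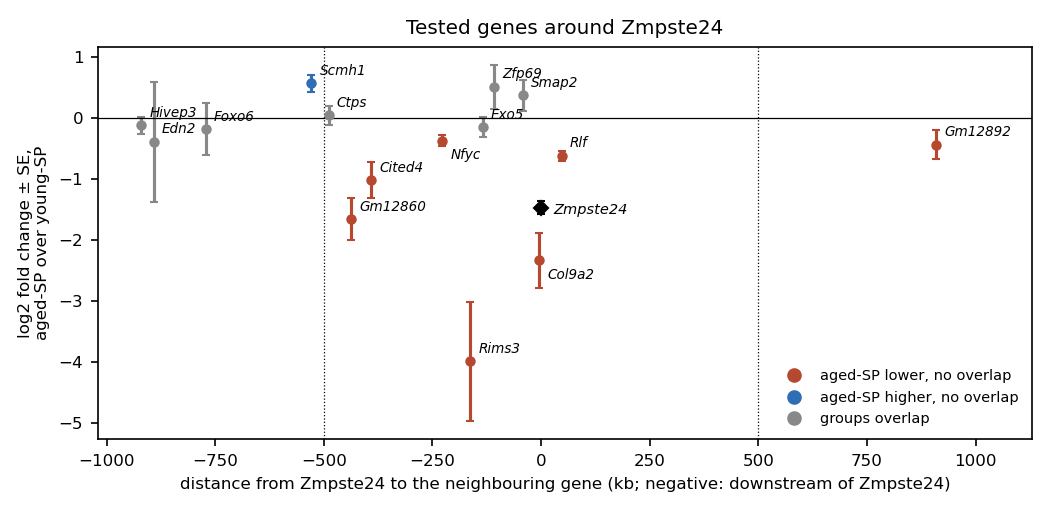
Log2 fold change with its standard error (bars), aged-SP over young-SP, of tested genes within 1000 kb of Zmpste24, against their distance from it in kb. The black diamond is Zmpste24 and the dotted lines mark 500 kb on either side, within which 6 of 11 genes were lower without overlap and 0 were higher.

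The genes whose pattern over the 5 libraries was most like that of Zmpste24 were found by the root mean square difference of log2 CPM, each gene centred on its own mean, among tested genes with a mean of at least 50 counts. They were Adamts14, a procollagen-processing metalloprotease (difference 0.0561), Epha3, an ephrin receptor (0.0749), Pdlim1, an actin-associated PDZ and LIM protein (0.0758), Tmem26, a membrane protein (0.0994), and Wfdc1, a secreted protein with a whey acidic protein domain (0.108). Adamts14 was at 6.29 and 7.80 CPM in the aged-SP and 19.8, 19.9 and 21.4 CPM in the young-SP group. Pdlim1 was at 50.5 and 61.7 CPM against 139.2, 143.4 and 146.3 CPM. All 5 had low values in both aged-SP libraries and a flat, higher level in the young-SP libraries, with log2 fold changes from -1.57 to -1.35, and none lies on chromosome 4. They were chosen for likeness to Zmpste24, so their separation of the groups is no finding.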

How the data were processed

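RNA of 5 whole uteri was analysed (2 aged-SP, 3 young-SP), grouped by the sample labels. Per the labels, libraries were made with the NEBNext Ultra RNA kit from total RNA. The authors filtered the reads and aligned them with HISAT2 2.1.0, and HTSeq 0.6.0 and Bowtie2 2.2.3 stand in the submitters' processing notes. The genome build is not given in the sources used here, but the positions of 26998 of 28666 genes equal those in GENCODE M21 (GRCm38), which lacks 74 of the identifiers. The deposited counts are unnormalized counts per gene and were used for all tests. The deposited FPKM values were made by the authors from these counts, with one length per gene. The deposited table also holds the authors' own fold changes and p-values, which were not used, and 0 per-sample columns were left out. Whether counting used strand is not given.

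Genes were filtered with filterByExpr, scaled by TMM (factors 0.99 to 1.02) and compared with edgeR 4.0.16 (glmQLFit and glmQLFTest, two-sided, Benjamini-Hochberg adjustment over 17013 genes) in R 4.3.3. CPM are counts over the TMM-scaled library size. The typical variation between libraries of a group beyond counting error was 25.1% of the mean. Total counts were 15071914 to 16728601. P-values measure the spread between these libraries only. Calls required an adjusted p under 0.05 with a log2 fold change over 1 in size. Alternatives were DESeq2 1.42.0 (size factors, Wald test), limma 3.58.1 (voom), library size alone, no filter, a minimum of 10 counts per sample, a replicate block and each library left out. DESeq2's Wald test was run on the counts with no filter on low counts. Tests were checked on simulated counts. Shared sequence was measured as 50-base stretches of a gene's transcripts that occur in other genes, and was at most 5.27% (Fntb). Zmpste24 had 1.06%.

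The members and lists were chosen with earlier results of these data known. Named genes are the 8 members, per list the 3 smallest p-values, the highest FPKM and any called gene, the 5 genes most like Zmpste24, tested genes within 500 kb of it, and markers. Fdps, Scmh1 and the markers printed singly were named after their values were seen. A coding end and 1 gene near Zmpste24, which is counted but not drawn, are not reported here. The stromal sum without Col1a1 was added after the values were seen.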

Additional observations from a re-analysis of the deposited data

How the results depend on the processing

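The log2 fold changes of the 8 genes were recomputed 96 times (12 alternatives each), and 96 stayed within 1 SD of the replicates. This check could hardly fail. Most alternatives barely alter a fold change, and leaving out 1 library moves the mean of its group by less than that group's SD. The ranges were -1.55 to -1.39 for Zmpste24, -0.06 to 0.01 for Rce1, -0.13 to 0.01 for Icmt, 0.01 to 0.09 for Fnta, -0.39 to -0.19 for Fntb, -0.25 to -0.18 for Lmna, -0.74 to -0.12 for Lmnb1 and -0.61 to -0.40 for Lmnb2. The count of called genes depended far more on the processing: 25 with edgeR, 632 with DESeq2's Wald test, 203 with no filter on low counts, and from 1 (without aged-SP replicate 1) to 578 (without young-SP replicate 1) with a library left out. Leaving out aged-SP replicate 4 gave 49, young-SP replicate 2 gave 3 and young-SP replicate 4 gave 2. Of the pathway genes 0 were called, but 1 with DESeq2, 1 with no filter, and 0 to 1 with a library left out. DESeq2's Wald test was also run with no filter on low counts, so tool and filter differ together there. The cause was not tested. Where 1 aged-SP library was left, it was assumed to vary like the others. With the replicate block 2 genes were called. Replicate numbers 1 and 4 occur in both groups, and the deviations of same-numbered libraries correlated at 0.152 and 0.136, but nothing in the labels says that a number marks a shared batch. With the longest coding transcript as gene length (added after seeing the data), mean FPKM was 76.1 for Zmpste24, 15.8 for Rce1, 48.8 for Fnta, 7.99 for Fntb and 62.1 for Lmna, because the transcript is shorter than the union of exons. The other scalings moved the median of all genes by -0.0134 at most in size.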
